A study of Homo sapiens with 6 samples.

Results

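The vascular endothelial growth factor (VEGF) and platelet-derived growth factor (PDGF) ligands were examined in SiHa PR cells with and without P4HA3 overexpression. The set was fixed by symbol as VEGFA, VEGFB, VEGFC, PGF, PDGFA, PDGFB, PDGFC and PDGFD, and all 8 were found among the 60664 Ensembl genes of the count table. RNA-seq covered 3 samples of SiHa PR cells, labelled without further treatment and referred to here as control, and 3 samples of SiHa PR cells overexpressing P4HA3. SiHa is an established human cervical squamous carcinoma line, and PR denotes the parental cells from which a highly lymph node-metastatic derivative was made. According to the study's methods, overexpression constructs were cloned in the pCDH vector, and the sample labels do not say whether control cells carried a vector. The RNA came from cultures labelled as 1 cell line, and the response of endothelial or stromal partner cells was not measured. Receptor RNA was read in the same cultures as ligand RNA. Nothing states that the 3 samples of a group were separate cultures, so the p-values measure the spread between these samples, which may be technical.

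VEGF ligands are secreted dimers that bind receptor tyrosine kinases on endothelial cells. VEGFA acts mainly through KDR and FLT1 on blood vessels, VEGFB and PGF bind FLT1, and VEGFC acts through FLT4 to drive the growth of lymphatic vessels. PDGF ligands are related dimers that act through PDGFRA and PDGFRB on fibroblasts, pericytes and smooth muscle cells. PDGFA and PDGFB are processed inside the cell, whereas PDGFC and PDGFD are secreted as latent forms and cleaved outside it. VEGFA is a known target of the hypoxia-inducible factors, and VEGFC is known for its part in lymphatic spread of carcinomas.

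The overexpressed gene was checked first. P4HA3, which encodes a catalytic subunit of collagen prolyl 4-hydroxylase, ranged from 2.91 to 3.80 CPM (counts scaled to each library's total after TMM normalization) in the 3 control libraries and from 1934 to 1991 CPM in the 3 overexpression libraries. This matched the labels of all 6 libraries. Total counts per library were 21773488 to 24939948. The libraries also differed in how expression followed GC content. Each library's genes were compared with their average over the 3 libraries of the same group. Spearman's rho of that difference with GC content was 0.22, 0.38 and -0.52 for the control libraries in replicate order. It was 0.45, -0.48 and 0.08 for the overexpression libraries. Control replicate 3 and overexpression replicate 2 were the libraries with a negative rho. In the overexpression group, replicates 1 and 2 lay at opposite ends with replicate 3 between them. These values are relative to each group's average, so they do not compare the groups. Over 15107 tested genes the log2 fold change fell with GC content (rho = -0.58), so values corrected for GC content are given beside the ligands below. Epithelial keratins were abundant, with KRT7 at 4329 CPM and KRT17 at 5338 CPM in control cells, whereas the smooth muscle genes MYH11, CNN1 and DES averaged under 0.2 CPM in both groups. Other genes of the smooth muscle, pericyte and fibroblast list were present, with control and overexpression means of 7.78 and 7.98 CPM for ACTA2, 8.84 and 17.2 CPM for TAGLN, and 18.5 and 17.1 CPM for CSPG4. A growth protocol in the labels describes uterine smooth muscle tissue, and the SiHa identity was taken from the cell line label. KRT5 and TP63, squamous basal markers, were at 0.158 and 0.392 CPM in control cells and too low to test.

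Of the 8 ligands, 6 had enough counts to be tested, and 3 of these passed the edgeR quasi-likelihood test of overexpression against control (adjusted p under 0.05). VEGFA and VEGFB fell, with changes of -22.0% and -24.4%, and VEGFC rose by 31.1%. The 1 ligand called higher compares with 9.36% of the 15130 tested genes called higher, and the 2 called lower compare with 11.4% called lower. PGF, PDGFA and PDGFB did not pass the test, although each had an unadjusted p under 0.05. PDGFC and PDGFD were too low to test. The median log2 fold change of the 6 tested ligands was -0.38, against 0.01 for all tested genes. Neither median is corrected for GC content. The transcripts of the 6 ligands had a GC content of 51.3% to 63.0%, against a median of 49.3% over tested genes. The groups did not overlap for 4 of the 6 ligands, VEGFA, VEGFB, VEGFC and PDGFA, against 40.1% of all tested genes.

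**Figure D1:**
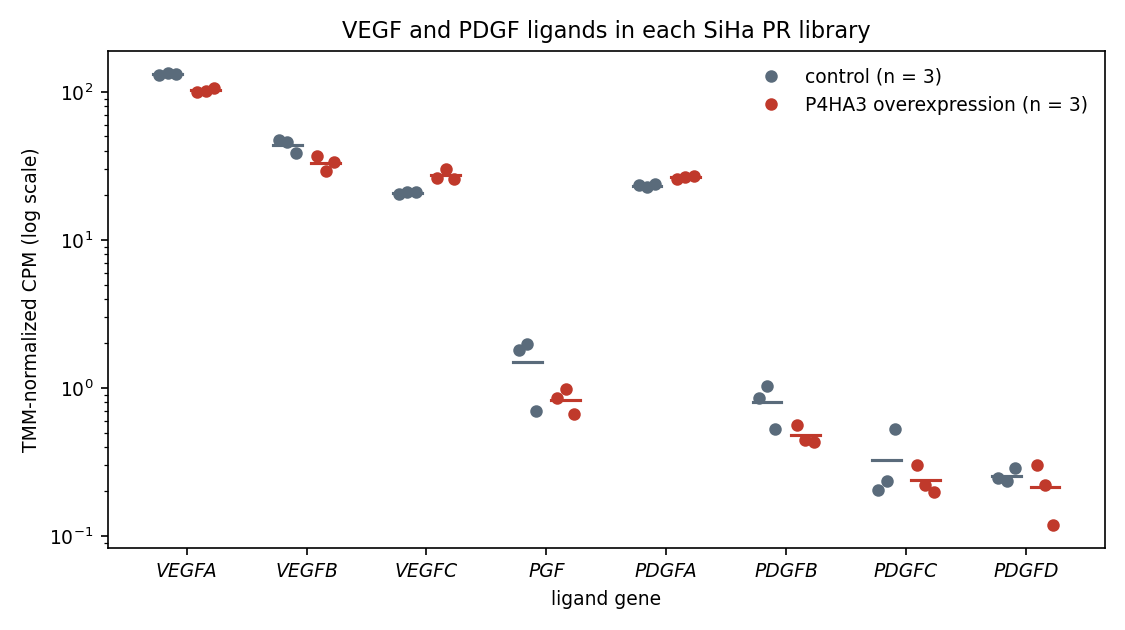
Each point is 1 library, with TMM-normalized CPM on a logarithmic vertical axis and the 8 ligand genes along the horizontal axis, for 3 control and 3 P4HA3 overexpression libraries. VEGFA lies highest, at about 100 CPM or more in all 6 libraries, and PDGFC and PDGFD lie lowest, near 0.2 to 0.5 CPM or below.

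Levels were compared between ligands per kilobase of the canonical transcript, as CPM per kilobase. In control cells VEGFA was highest at 36.5 ± 0.416 (SD, n = 3), followed by VEGFB at 24.4 ± 2.55, VEGFC at 9.23 ± 0.169 and PDGFA at 8.48 ± 0.194. PGF stood at 0.857 ± 0.399, PDGFB at 0.217 ± 0.0684, PDGFC at 0.0708 and PDGFD at 0.0666 CPM per kilobase. Neighbours in this order had separate ranges over the 3 control libraries, except PDGFC and PDGFD, which overlapped. The order of VEGFA and VEGFB depended on the length used. With all annotated exons merged, VEGFA stood at 9.13 and VEGFB at 22.3 CPM per kilobase, since the 26 annotated VEGFA transcripts together cover 14431 bases and the canonical one 3609 bases. VEGFA ranked at percentile 84.0 of all tested genes by level per kilobase and PDGFB at percentile 4.42. Cells at a lower level of a ligand and fewer cells that express it cannot be told apart in bulk RNA.

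VEGFA (ENSG00000112715, GRCh38 chr6:43770184-43786487, plus strand), the main driver of blood vessel growth, was the most abundant ligand by counts. It had 3177, 2843 and 3220 counts in the control libraries and 2321, 2292 and 2708 with overexpression, or 130, 133 and 132 CPM against 99.7, 102 and 107 CPM. Every overexpression library was below every control library. VEGFA fell from 131.8 ± 1.502 CPM in control to 102.8 ± 3.63 CPM (SD, n = 3 each). The log2 fold change was -0.36 (SE 0.05, 95% interval -0.48 to -0.24, edgeR adjusted p = 0.00277), a change of -22.0%. After correction for GC content and length the log2 fold change was -0.33 (adjusted p = 0.000316). The call held with each library left out in turn, with log2 fold changes from -0.39 to -0.34 (adjusted p 0.00149 to 0.0267). With 3 samples per group, an exact two-sided permutation test over the samples cannot go below 0.1, and this was its value. An antisense lncRNA, ENSG00000272114, overlaps 188 of VEGFA's exonic bases (1.30%), and the strand setting of the counting is not given in the sources used here.

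VEGFB (ENSG00000173511, GRCh38 chr11:64234584-64239264, plus strand) binds FLT1 and is linked to tissue metabolism more than to vessel sprouting. The control libraries held 47.6, 45.6 and 38.8 CPM and the overexpression libraries 36.8, 29.4 and 33.5 CPM. The groups did not overlap, but control replicate 3 lay close to overexpression replicate 1. VEGFB fell from 44.01 ± 4.60 to 33.2 ± 3.66 CPM, a log2 fold change of -0.40 (SE 0.10, 95% interval -0.63 to -0.18, edgeR adjusted p = 0.0208). Its transcript has a GC content of 62.2%, against a median of 49.3% over tested genes. With the GC and length correction, the log2 fold change was -0.17 (adjusted p = 0.0566) and the call was lost. The call was also lost without control replicate 1 (-0.34, adjusted p = 0.0960), without control replicate 2 (-0.38, adjusted p = 0.110) and without overexpression replicate 3 (-0.41, adjusted p = 0.0747). Leaving out these libraries also lowered the calls over all genes, to 227 higher and 552 lower, 161 and 374, and 272 and 635, in that order.

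VEGFC (ENSG00000150630, GRCh38 chr4:176683538-176792922, minus strand), the lymphatic ligand, moved the other way. It had 20.4, 21.1 and 21.0 CPM in the control libraries and 26.2, 30.1 and 25.7 CPM with overexpression, from 450 to 514 counts and from 611 to 676 counts. The control libraries lay close together, and all 3 overexpression libraries were above them, with replicate 2 highest. VEGFC rose from 20.8 ± 0.382 to 27.3 ± 2.38 CPM, a log2 fold change of 0.39 (SE 0.08, 95% interval 0.21 to 0.57, edgeR adjusted p = 0.0124), or 1.31-fold. After the GC and length correction it was 0.49 (adjusted p = 0.00299). The call was lost without control replicate 1 (0.38, adjusted p = 0.0643) and without control replicate 2 (0.40, adjusted p = 0.0640). VEGFD, the closest relative of VEGFC, was not tested, at 0 to 0.0939 CPM in the 6 libraries.

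PGF (ENSG00000119630, GRCh38 chr14:74941834-74955626, minus strand), placenta growth factor, was low. It had 44, 42 and 17 counts in the control libraries and 20, 22 and 17 with overexpression, or 1.81, 1.97 and 0.695 CPM against 0.859, 0.978 and 0.670 CPM. Control replicate 3 lay within the range of the overexpression libraries, so the groups overlapped. The log2 fold change was -0.83 (SE 0.36, 95% interval -1.62 to -0.03, edgeR adjusted p = 0.117). Without control replicate 3 it was -1.18 and passed the test (adjusted p = 0.0133). Leaving out overexpression replicate 2 as well, an alternative added after the data had been seen, gave -1.31 (adjusted p = 0.00257).

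**Figure D2:**
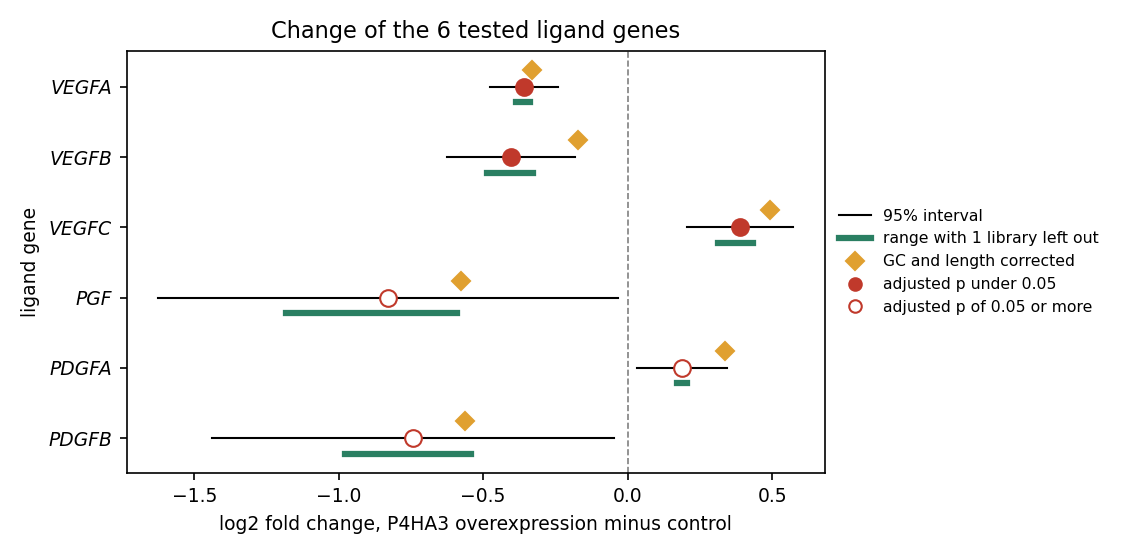
Points are log2 fold changes of P4HA3 overexpression minus control for the 6 tested ligand genes, bars are 95% intervals from edgeR, diamonds are the values after correction for GC content and length, and thick lines are ranges with 1 library left out. VEGFA at -0.36 and VEGFC at 0.39 lie on opposite sides of 0, and the widest intervals belong to PGF and PDGFB, which have the fewest counts.

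The sequences upstream of VEGFB and VEGFC are shown with their base composition. The GC correction above used the GC content of transcripts, not of these upstream bases. RefSeq entries on GRCh38.p14 were matched for 5 of the 8 ligands, VEGFB, VEGFC, PGF, PDGFA and PDGFD. No entry was matched for VEGFA, PDGFB and PDGFC. The 250 bases before the start site of VEGFB (chr11:64234334-64234583, plus strand) and VEGFC (chr4:176792923-176793172, minus strand) read 5′ to 3′ as follows, with GC boxes in capitals (GGGCGG on either strand, overlapping matches joined).
VEGFB: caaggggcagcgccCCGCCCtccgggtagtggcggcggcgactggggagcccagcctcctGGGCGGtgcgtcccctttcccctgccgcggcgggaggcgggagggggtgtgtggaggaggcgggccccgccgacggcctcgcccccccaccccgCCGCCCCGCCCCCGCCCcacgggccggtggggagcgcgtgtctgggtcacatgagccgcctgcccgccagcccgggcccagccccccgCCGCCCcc
VEGFC: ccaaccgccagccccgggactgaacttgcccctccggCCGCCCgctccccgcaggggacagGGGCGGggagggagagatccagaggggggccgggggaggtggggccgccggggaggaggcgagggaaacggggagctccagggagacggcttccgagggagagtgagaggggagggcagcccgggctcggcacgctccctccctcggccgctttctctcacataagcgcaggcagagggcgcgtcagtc
Both windows were GC-rich, at 82.8% for VEGFB and 74.0% for VEGFC, against a median of 58.0% over 35116 promoter windows of that length. The VEGFB window held 6 GC boxes and the VEGFC window 2, and PGF, PDGFA and PDGFD held 3, 5 and 1. A GC box was present in 42.6% of all windows. The ACGTG form of the hypoxia response core was present in 18.5% of windows, the AP-1 letters TGANTCA in 6.57% and the TEAD core GGAATG in 11.9%. All of these had 0 matches on either strand in all 5 ligand windows. The GCGTG form of the hypoxia core was not counted. It occurs in both sequences printed above, in VEGFC as the reverse complement CACGC. The PDGFA window (chr7:518330-518579) and most of the PDGFD window (chr11:104164148-104164397) lie inside the annotated gene span. That of PGF (chr14:74955598-74955847) overlaps the span in part. These counts describe letters in these windows only.

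PDGFA (ENSG00000197461, GRCh38 chr7:497258-520296, minus strand), which signals through PDGFRA, was the main PDGF ligand. It had 23.4, 22.7 and 23.7 CPM in the control libraries and 25.8, 26.8 and 26.9 CPM with overexpression. All 3 overexpression libraries were above the control libraries, by a small margin. The means were 23.3 ± 0.531 and 26.5 ± 0.594 CPM, a log2 fold change of 0.19 (SE 0.07, 95% interval 0.03 to 0.34) that did not pass the test (edgeR adjusted p = 0.0791). With the GC and length correction it was 0.34 and passed (adjusted p = 0.00649).

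PDGFB (ENSG00000100311, GRCh38 chr22:39223359-39244982, minus strand), which recruits pericytes through PDGFRB, had 21, 22 and 13 counts in the control libraries and 13, 10 and 11 with overexpression. Control replicate 3, at 0.531 CPM, lay below overexpression replicate 1, at 0.558 CPM. The log2 fold change was -0.74 (SE 0.31, 95% interval -1.44 to -0.05, edgeR adjusted p = 0.109). It passed without control replicate 3 (-0.98, adjusted p = 0.0432).

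PDGFC (ENSG00000145431, GRCh38 chr4:156760454-156971799, minus strand) and PDGFD (ENSG00000170962, GRCh38 chr11:103907189-104164379, minus strand) are the ligands cleaved outside the cell. PDGFC had 5, 5 and 13 counts in the control libraries and 7, 5 and 5 with overexpression. PDGFD had 6, 5 and 7 counts against 7, 5 and 3. Both ligands overlapped between the groups. Fitted without the filter on low counts, the log2 fold changes were -0.44 for PDGFC (95% interval -1.42 to 0.54, adjusted p = 0.589) and -0.27 for PDGFD (-1.36 to 0.82, adjusted p = 0.809), so a fall of 2-fold in either ligand lay within its interval and was not detectable at this depth. PDGFD shares 193 exonic bases with DDI1 on the opposite strand.

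The proportion of VEGFC to VEGFA was compared within libraries. The log2 ratio of VEGFC to VEGFA counts in the same library was -2.68, -2.66 and -2.65 in control and -1.92, -1.76 and -2.05 with overexpression. Each overexpression library was above each control library by a wide margin compared with the spread within groups. VEGFC amounted to 15.8% of the VEGFA counts in control and 26.6% with overexpression, a 1.68-fold higher ratio (difference in log2 0.75, SE 0.09). The exact two-sided permutation p was 0.1, the smallest that 3 against 3 samples allow, and 0.2 after Benjamini-Hochberg adjustment over the 4 ratios computed. Since both counts come from 1 library, the ratio does not depend on the library's normalization.

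The VEGFB to VEGFA ratio overlapped between the groups, with a difference in log2 of -0.05 (SE 0.14, exact permutation p = 0.8). The PDGFB to PDGFA ratio was -4.86 ± 0.513 in control and -5.74 ± 0.226 with overexpression (difference -0.88, SE 0.32, exact permutation p = 0.1, adjusted 0.2). PDGFD to PDGFC differed by -0.02 (SE 0.40, exact permutation p = 1), from at most 13 counts per library. Per kilobase, the 4 VEGF ligands summed to 71.0 (67.7 to 72.7) CPM per kilobase in control and 59.5 (58.4 to 60.1) with overexpression. VEGFC's share of that sum was 13.0% (12.4 to 13.7) in control and 20.4% (19.0 to 22.8) with overexpression. With merged exon lengths the VEGF sums of the group means were 39.7 and 34.6 CPM per kilobase, and VEGFC's share was 20.1% and 30.3%. The 4 PDGF ligands summed to 8.84 (8.66 to 8.98) and 9.90 (9.70 to 9.996) CPM per kilobase, of which PDGFA made up 96.0% and 97.6%.

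**Figure D3:**
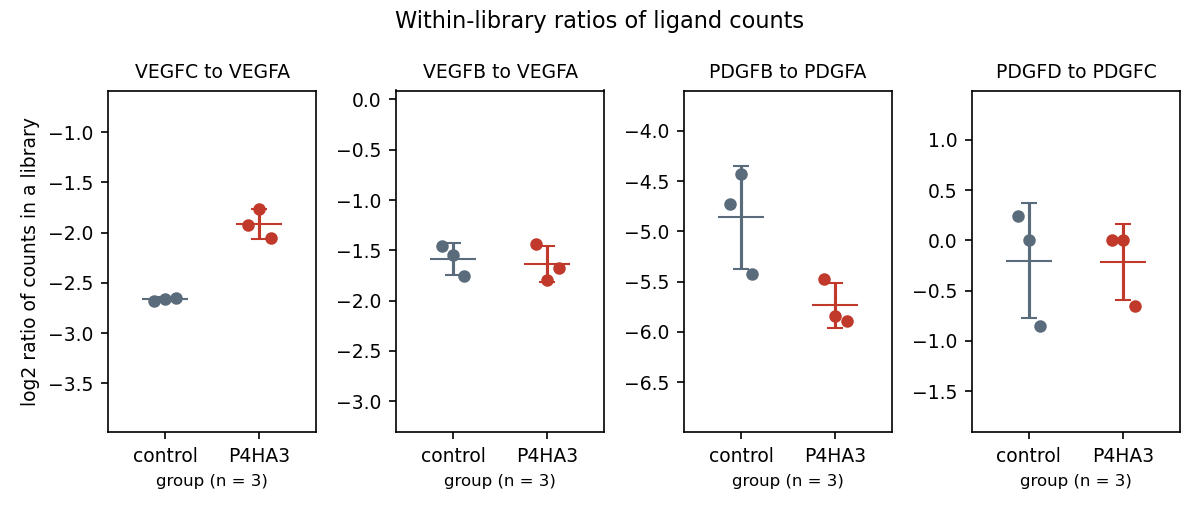
Each panel gives the log2 ratio of the counts of a pair of ligands within a library (with 0.5 added to each count), with 1 point per library and the mean ± SD of the 3 libraries of each group. The VEGFC to VEGFA ratio averages -2.66 in control and -1.91 with overexpression, while VEGFB to VEGFA lies between -1.79 and -1.44 in all 6 libraries.

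The receptors were read next. FLT1, KDR and FLT4, the signalling VEGF receptors, averaged at most 0.183 CPM in either group and were not tested. NRP1, a neuropilin that binds VEGFA and semaphorins, rose from 23.2 ± 0.274 to 31.9 ± 4.07 CPM (log2 fold change 0.46, SE 0.09, adjusted p = 0.0111), a call lost without control replicate 1 (0.46, adjusted p = 0.0525) or 2 (0.47, adjusted p = 0.0644). NRP2, the neuropilin that binds VEGFC, was at 0.935 ± 0.184 and 0.895 ± 0.122 CPM (log2 fold change -0.06, adjusted p = 0.866). PDGFRA (3.02 and 2.78 CPM) and PDGFRB (3.98 and 4.15 CPM), which bind the PDGF ligands, gave adjusted p values of 0.631 and 0.781. PDGFRL, a receptor-like protein without a kinase domain, fell from 8.00 ± 0.599 to 5.89 ± 0.230 CPM (log2 fold change -0.44, SE 0.11, adjusted p = 0.0187), a call lost without control replicate 1 (-0.43, adjusted p = 0.0776), control replicate 2 (-0.39, adjusted p = 0.0930) or overexpression replicate 3 (-0.45, adjusted p = 0.0686).

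Of 12 genes that process or activate the ligands, 9 were tested and 3 fell, with 0 called higher, and the list's median log2 fold change was -0.17. Over all tested genes, 11.4% were called lower and 9.36% higher. ST14, a membrane serine protease, fell from 3.93 ± 0.325 to 1.77 ± 0.0530 CPM (log2 fold change -1.15, adjusted p = 0.00124). FURIN, the convertase that cuts VEGFC and PDGF precursors, fell from 494 ± 28.2 to 426 ± 24.4 CPM (-0.21, adjusted p = 0.0441), and CTSD, the lysosomal protease cathepsin D, fell from 132 ± 9.72 to 107 ± 9.95 CPM (-0.30, adjusted p = 0.0253). After the GC and length correction FURIN was at -0.02 (adjusted p = 0.738) and CTSD at -0.06 (adjusted p = 0.354), so both calls were lost, while that for ST14 held. The convertases PCSK6 (0.26, adjusted p = 0.00327) and PCSK7 (0.13, adjusted p = 0.0273) were then called higher, which made the list 2 higher and 1 lower. Of all 15130 tested genes, that correction called 1396 higher and 1406 lower. The calls for CTSD and FURIN were also lost without control replicate 1, control replicate 2 or overexpression replicate 3. In that order the log2 fold changes were -0.31, -0.25 and -0.30 for CTSD and -0.20, -0.18 and -0.23 for FURIN. The FURIN call was lost too without overexpression replicate 2 (-0.17).

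Among 11 extracellular proteins that bind or hold the ligands, all tested, 2 rose and 2 fell, against 9.36% and 11.4% of all tested genes. A2M, a plasma protease inhibitor that binds growth factors, rose from 1.11 ± 0.184 to 1.96 ± 0.175 CPM (log2 fold change 0.82, adjusted p = 0.0161), and CCN2, a matricellular protein, from 10.3 ± 1.20 to 13.6 ± 0.998 CPM (0.40, adjusted p = 0.0286). SDC1, a heparan sulfate proteoglycan, fell from 157 ± 10.3 to 128 ± 5.93 CPM (-0.29, adjusted p = 0.0143), and the endocytic receptor LRP1 from 210 ± 15.9 to 181 ± 5.47 CPM (-0.22, adjusted p = 0.0384). DESeq2 did not call A2M (adjusted p = 0.0575). All 4 calls were lost without control replicate 1, control replicate 2 or overexpression replicate 3. In that order the log2 fold changes were 0.71, 0.80 and 0.76 for A2M, 0.31, 0.43 and 0.46 for CCN2, -0.26, -0.27 and -0.30 for SDC1 and -0.24, -0.15 and -0.22 for LRP1. THBS1, SPARC, HSPG2 and 4 others did not pass the test. With the GC and length correction the list had 3 higher and 3 lower, with GPC1 (0.34, adjusted p = 9.92e-05) and SPARC (-0.40, adjusted p = 0.0277) added.

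Of 24 other secreted angiogenic and lymphangiogenic factors, 18 were tested, 3 rose and 5 fell, with a median log2 fold change of -0.25. The shares over all tested genes were 9.36% called higher and 11.4% called lower. CCN1, a matricellular inducer of vessel growth, rose from 271 ± 1.99 to 467 ± 55.4 CPM (log2 fold change 0.78, adjusted p = 0.000573). SEMA3C, a semaphorin that binds neuropilins, rose from 43.1 ± 2.47 to 67.6 ± 14.9 CPM (0.65, adjusted p = 0.0103), and the vasodilator peptide ADM from 64.6 ± 1.40 to 85.3 ± 3.09 CPM (0.40, adjusted p = 0.00232). ANGPTL4, TYMP and ANG fell, with log2 fold changes of -0.80 (adjusted p = 0.00864), -0.66 (adjusted p = 0.00864) and -0.78 (adjusted p = 0.0281). COL18A1, the source of endostatin, and MDK, midkine, fell too, the latter not after the GC and length correction (-0.16, adjusted p = 0.0940). That correction added HDGF (0.18, adjusted p = 0.0109) as higher and FGF2 (-0.19, adjusted p = 0.0320) as lower, for 4 higher and 5 lower. Without control replicate 2 the calls for SEMA3C (0.64), ANGPTL4 (-0.79), TYMP (-0.69) and ANG (-0.66) were lost. That of ANG was lost also without control replicate 1 (-0.78) and overexpression replicate 3 (-0.76).

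The hypoxia-inducible factor genes themselves did not pass the test. HIF1A was at 347 ± 30.1 and 374 ± 62.8 CPM (log2 fold change 0.11, adjusted p = 0.486) and EPAS1 at 408 ± 14.0 and 413 ± 11.6 CPM (0.02, adjusted p = 0.820). Of 21 genes of the HIF pathway and its targets, all tested, 5 fell and 1 rose, against 11.4% and 9.36% of all tested genes. The list's median log2 fold change was -0.12. The falls included NDRG1, a stress-induced protein, from 89.1 ± 3.10 to 59.7 ± 2.82 CPM (-0.58, adjusted p = 0.000664), the glycolytic regulator PFKFB4 from 17.7 ± 1.16 to 12.1 ± 0.515 CPM (-0.55, adjusted p = 0.00382), and CA9, carbonic anhydrase IX, from 2.34 ± 0.536 to 1.09 ± 0.0817 CPM (-1.10, adjusted p = 0.00804). SLC2A1 and EGLN3 fell as well, and ADM, which is in the angiogenic list too, was the gene that rose. LDHA, PDK1, BNIP3 and the remaining genes did not pass. With the GC and length correction 7 fell and 1 rose, against 1406 called lower and 1396 called higher of all 15130 tested genes. The SLC2A1 call was then lost (-0.12, adjusted p = 0.0609), and PDK1 (-0.52, adjusted p = 0.00396), BNIP3L (-0.38, adjusted p = 0.000929) and VHL (-0.15, adjusted p = 0.0217) were called lower.

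Of 15 signalling genes shared by both receptor families, all tested, 1 rose and 2 fell, against 9.36% and 11.4% of all tested genes. CRK, an adaptor protein, rose from 131 ± 8.68 to 155 ± 2.89 CPM (log2 fold change 0.24, adjusted p = 0.0220), SHC1, an adaptor of receptor tyrosine kinases, fell from 413 ± 13.2 to 338 ± 28.1 CPM (-0.29, adjusted p = 0.0177) and SRC, a kinase, fell from 107 ± 5.50 to 92.4 ± 6.07 CPM (-0.21, adjusted p = 0.0458, lost with the GC and length correction at -0.06). These 3 calls were lost without control replicate 1, control replicate 2 or overexpression replicate 3, at 0.23, 0.20 and 0.24 for CRK, -0.29, -0.26 and -0.30 for SHC1 and -0.19, -0.19 and -0.23 for SRC, and that of SRC without overexpression replicate 2 (-0.16). With the GC and length correction GAB1, a docking protein, was called lower (-0.72, adjusted p = 0.00789).

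**Figure D4:**
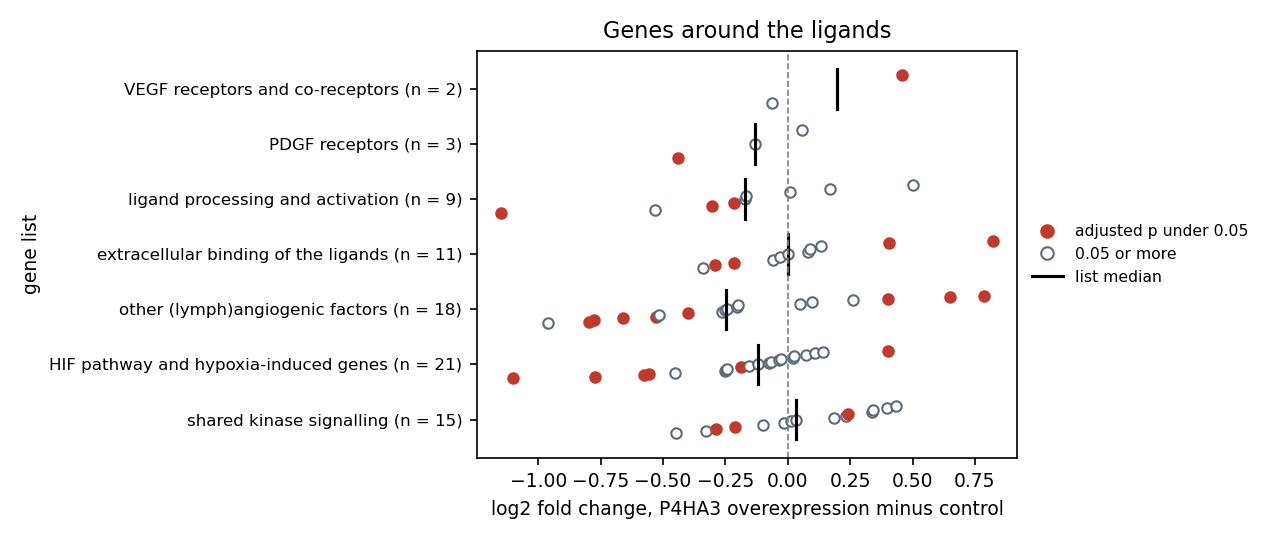
Each point is the log2 fold change of 1 tested gene, P4HA3 overexpression minus control, with genes grouped on the vertical axis by list, filled points for an adjusted p under 0.05 and a black line at each list's median. The medians of the PDGF receptors (-0.13), the processing list (-0.17), the list of other angiogenic factors (-0.25) and the HIF list (-0.12) lie below 0. That of the binding proteins (0.00) lies at it, and those of the VEGF receptors (0.20) and the shared signalling genes (0.03) lie above. All values are without the GC and length correction.

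Other cell types could add ligand RNA, so their markers were read beside the results. Of 11 endothelial markers, 10 were too low to test and TIE1 and LYVE1 had 0 counts in all 6 libraries. Their summed level was 3.31 to 4.22 CPM in control and 1.65 to 2.29 CPM with overexpression, most of it PECAM1, which fell from 2.89 ± 0.473 to 1.40 ± 0.0634 CPM (log2 fold change -1.03, adjusted p = 0.00494). The 12 pericyte, smooth muscle and fibroblast markers summed to 203 to 207 CPM in control and 173 to 207 CPM with overexpression. Of 8 tested, TAGLN, an actin-binding protein, was the only one called (8.84 ± 0.441 to 17.2 ± 0.613 CPM, log2 fold change 0.96, adjusted p = 0.000436), while COL1A1, COL1A2, LUM and DCN were present at 14.1 to 62.9 CPM and did not pass. With the GC and length correction LUM was called lower (-0.41, adjusted p = 0.0119). Of 7 tested epithelial markers 3 fell, with the largest drop for CDH1, E-cadherin, from 16.5 ± 0.211 to 9.66 ± 0.821 CPM (-0.77, adjusted p = 0.00114), alongside KRT18 and KRT17. Over all tested genes, 9.36% were called higher and 11.4% lower. Without control replicate 1, control replicate 2 or overexpression replicate 3 the calls for KRT18 (-0.37, -0.35 and -0.39) and KRT17 (-0.29, -0.28 and -0.31) were lost, and that of KRT17 with the GC and length correction (-0.09). Under that correction KRT7 was called higher (0.32, adjusted p = 0.00235), so that 1 epithelial marker was higher and 2 were lower. The part of these markers in the ligand results was not tested.

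The genes most like each ligand across the 6 libraries were found by Pearson's r of log2 CPM among 13370 genes. These libraries share 2 groups and their GC differences, so r is a description and no p is given. For VEGFA these were FZD10 (r = 0.9996), ADARB2 (0.9986) and CDH1 (0.9973), all of which fell with overexpression. For VEGFC they were GTF2H2C (0.9985), IFRD1 (0.9965) and ABI1 (0.9964). For VEGFB they were MIF4GD (0.9973), VPS51 (0.9971) and FAM234A (0.9966), and for PGF they were FOSL1 (0.9876), H4C14 (0.9803) and SUGCT (0.9787). PDGFA followed UGDH (0.9998), OXCT1 (0.9973) and PPP1R2 (0.9971), and PDGFB followed MZF1 (0.9966), ZNF688 (0.9956) and HSD17B1-AS1 (0.9937).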

How the data were processed

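Gene counts from 6 libraries were analysed. Per the study's methods, the authors enriched poly-A RNA, prepared stranded dUTP libraries, sequenced paired ends, and counted reads per gene with HTSeq after aligning to GRCh38 with STAR. The submitters' processing notes name HISAT2, so the aligner is uncertain. Versions and the strand setting of the counting are not given in the sources used here, so antisense overlaps cannot be resolved. The deposited values are raw counts of 60664 genes, without normalization. Of these identifiers, 60463 matched GENCODE v44 (GRCh38), used for symbols, positions, GC content and lengths.

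Counts were filtered by filterByExpr (minimum count 10), normalized by TMM and tested with edgeR 4.0.16 (R 4.3.3) by the quasi-likelihood test, two-sided, with Benjamini-Hochberg adjustment over 15130 genes and a threshold of 0.05. Standard errors are the unshrunk log2 fold change over the root of F. Levels between genes used CPM per kilobase of the canonical transcript. Ratios used counts plus 0.5 and an exact permutation test over samples. Alternatives were DESeq2 1.42.0, limma-voom (limma 3.58.1), other normalizations, filters and thresholds, a replicate block, a GC and length correction (smooth terms, mgcv 1.9.3), and libraries left out.

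The ligands, gene lists and tests were chosen with earlier results of these data known. Named genes were P4HA3, the ligands, all receptors and, per other list, up to 3 called genes each way with the largest change and at least 1 CPM. The 3 genes most like each tested ligand also needed at least 1 CPM. EGLN3, SLC2A1, COL18A1 and MDK, the uncalled genes of the lists and the cell type markers were named after their values were seen.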

Additional observations from a re-analysis of the deposited data

How the results depend on the processing

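VEGFA kept its call under all 17 alternatives. The number of ligands called higher was 2 with the GC and length correction and 2 with the replicate block plus that correction. It was 0 at an adjusted p under 0.01, and 0 to 1 with a library left out. Of all 15130 tested genes, the correction called 1396 higher and 1406 lower, and the block plus the correction called 1761 and 1775. The number of ligands called lower was 1 with the GC and length correction and 1 at an adjusted p under 0.01, and ranged from 1 to 4 with a library left out. It was lowest without control replicate 1, control replicate 2 or overexpression replicate 3, and highest without control replicate 3. The VEGFB log2 fold change was -0.17 with the correction and -0.49 to -0.33 with a library left out, and that of VEGFC 0.31 to 0.43. Several values near 0 changed sign when a library was left out. The VEGFB to VEGFA ratio then differed by -0.14 to 0.033 and PDGFD to PDGFC by -0.34 to 0.21. NRP2 ranged from -0.16 to 0.11 and was 0.21 without both control replicate 3 and overexpression replicate 2, a setting chosen after the data had been seen, PDGFRA ranged from -0.26 to 0.034 and PDGFRB from -0.0024 to 0.15. The cause of these differences was not tested.

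The correlations of same-numbered deviations from the group averages were 0.25, -0.05 and 0.03. With 3 samples per group, these cannot tell whether the replicate numbers pair the samples. With the number as a block, PGF was also called lower (-0.80, adjusted p = 0.0209), giving 3 ligands lower and 1 higher, the block with the GC and length correction called VEGFB lower (-0.17, adjusted p = 0.0332), and calls over all genes went from 1416 higher and 1731 lower to 2138 and 2175. At an adjusted p under 0.01 there were 221 and 507 such calls. With no filter on low counts there were 2384 and 2101, and PGF passed (-0.82, adjusted p = 0.00842), so 3 ligands were lower. Left-out libraries gave 161 to 2798 higher and 374 to 2726 lower calls, lowest without control replicate 2 and highest without overexpression replicate 1. PGF, PDGFB, PDGFC and PDGFD rested on at most 44, 22, 13 and 7 counts per library.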
